A study of Homo sapiens with 9 samples.

Results

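The nuclear genes for the subunits of oxidative phosphorylation were followed in THP-1 cells, a human monoblastic leukemia line that grows in suspension. Members were all array probes whose gene symbol in the platform annotation begins with NDUFA, NDUFB, NDUFC, NDUFS, NDUFV, SDHA to SDHD, UQCR, ATP5 or COX4 to COX8, or is CYC1, UQCRFS1 or UQCRH, without the assembly factors named NDUFAF and SDHAF. They were 107 of the 48803 probes and stood for 80 genes, and the rule uses no measured difference between states. A probe was kept when its detection score, 1 minus the p-value of its signal against the negative controls, was above 0.95 on at least 3 of the 9 arrays. This kept 95 member probes of 72 genes, of which 94 were detected on all 9 arrays, so that almost none passed through 1 state alone. The names also admit 4 genes that encode no subunit. ATP5IF1 encodes the inhibitor of ATP synthase, and SDHAP1, SDHAP3 and ATP5F1EP2 are pseudogenes. The 9 arrays held 3 samples each of fresh cells, frozen cells and replated cells of the same line. The title of the series is about obtaining good RNA from cells stored in liquid nitrogen. The labels give no time of freezing, thawing or culture and no treatment, and the design text calls the replicates biological without saying how they were separated. The p-values therefore measure the spread between these arrays, which may be partly technical.

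Oxidative phosphorylation is carried out in the inner mitochondrial membrane. Complex I (NADH dehydrogenase) and complex II (succinate dehydrogenase) pass electrons to ubiquinone, complex III (the cytochrome bc1 complex) passes them to cytochrome c, and complex IV (cytochrome c oxidase) passes them to oxygen. Complexes I, III and IV pump protons, and complex V, the ATP synthase, uses the proton gradient to make ATP. Except for complex II, each complex joins subunits encoded in the nucleus with subunits encoded in mitochondrial DNA, so nuclear and mitochondrial expression have to be matched. Only the nuclear genes are described here.

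The probes detected per array numbered between 16898 and 17679, and the mean signal before normalisation lay between 299.6 and 367.1 intensity units. Between 94 and 96 member probes were detected on each array. All 11 of the myeloid markers that had a probe were detected on all 9 arrays. Of 10 markers of other cell types with a probe, 7 were detected on no array (ALB, CD3E, COL1A1, EPCAM, HBB, KRT18 and PPBP). PECAM1 was detected on all 9, and the rest on some arrays but not all. In each comparison a member is called when limma's p-value, adjusted by the Benjamini-Hochberg method over all 18102 kept probes of the array, is under 0.05. A log2 difference is the difference of mean normalised log2 signal between states, and ± is its standard error from limma, with n = 3 arrays per state. Fewer transcripts per cell and fewer cells that express a gene cannot be told apart in such bulk RNA, and normalisation makes every difference relative to the other probes of the array.

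The 95 members stayed close to the level of the fresh cells in both other states, and the few that were called differed by less than 1.5-fold. In replated cells ATP5MC1 (both probes) and 1 probe of ATP5F1D, both genes of the ATP synthase, and NDUFA9 of complex I were lower than in frozen cells, and 1 probe of each lower than in fresh cells too. NDUFB5 of complex I was lower and the pseudogene SDHAP3 higher in replated than in frozen cells. No member of complex III or IV was called in any comparison, although UQCRH and UQCR11 of complex III were under other settings. In frozen against fresh cells 0 of the 95 were called by limma, where the background is 1.02% of all kept probes. At an unadjusted p under 0.05 there were 9 members (9.47%) against 17.2% of all kept probes. In replated against fresh cells 3 members were called, 3.16% of them against 4.13% of all kept probes. All of these 3 were lower, against 1.91% of all kept probes called lower. In replated against frozen cells 6 were called (6.32%, background 11.6%), of which 5 were lower (background 5.32%) and 1 was higher (background 6.25%). Across the 3 states limma's F test called 5 members, or 5.26% against 9.63%. For calls in either direction, the share of members was below the share of all kept probes in every comparison. For calls lower in replated against fresh cells alone it was above, at 3.16% against 1.91%, which rests on 3 probes. These counts are small and were not tested against the background. Under the alternative settings they ran from 0 to 1, 1 to 6 and 1 to 12 members, so neither order of the shares is read as a result. Counted by gene, with the brightest kept probe standing for each of the 72 genes, 0, 1 and 4 genes were called in the same order of comparisons, against 0.952%, 4.59% and 12.1% of all genes so counted. The 2 comparisons with replated cells share the replated arrays.

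**Figure D1:**
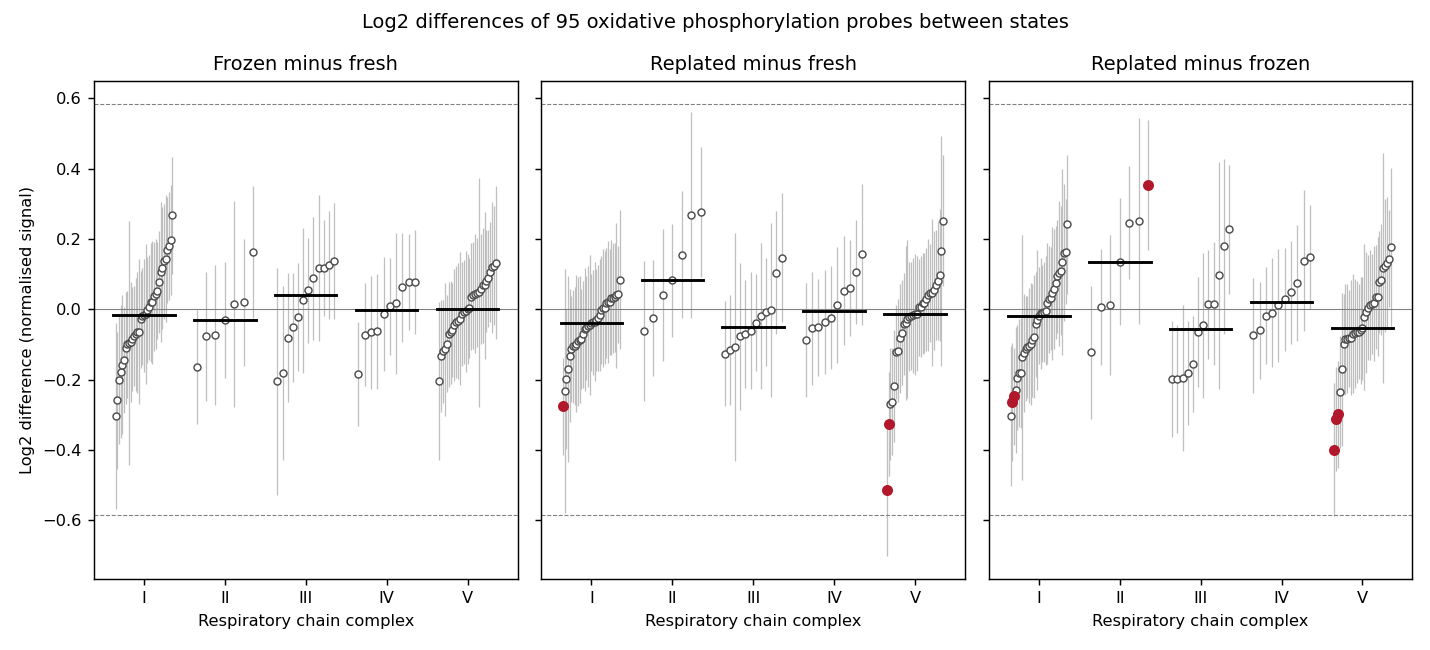
Each point is 1 of 95 member probes, placed by complex (horizontal axis) and by its log2 difference between 2 states (vertical axis, 3 panels), with grey bars for the 95% interval, a black line for the median of the complex, filled red points for called probes and dashed lines at a 1.5-fold difference. The points cluster around 0 in all 5 complexes, and the 3 called probes in replated against fresh cells and 5 of the 6 in replated against frozen cells lie below it.

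The member medians lay near those of all kept probes. The median log2 difference over the 95 members was -0.0056 in frozen against fresh cells (all kept probes 0.0057), -0.023 in replated against fresh cells (-0.0031) and -0.011 in replated against frozen cells (-0.0066). Each array centred on the median of its probes, in place of quantile normalisation, gave medians of all kept probes of -0.104, -0.024 and 0.078 in these 3 comparisons and member medians of -0.101, -0.058 and 0.058. Member minus array median, which takes out that shift, was then 0.0039, -0.033 and -0.021. Centring over the kept probes alone, a choice made after the data were seen, gave member medians of 0.051, -0.036 and -0.073. The replated against fresh median was thus below 0 under all 3 scalings, whereas the other 2 medians changed sign between them. Members below 0 in replated against fresh cells were 58 of 95 (61.1%, against 50.8% of all kept probes), 49 in frozen against fresh cells (background 48.6%) and 52 in replated against frozen cells (background 51.5%). Members whose 3 arrays of one state lay wholly outside the 3 of the other numbered 26 in frozen against fresh cells (27.4%, background 22.4%), 15 in replated against fresh cells (15.8%, background 25.6%) and 31 in replated against frozen cells (32.6%, background 33.8%). These shares straddle the background.

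The members' differences were small in size. The median size of the log2 difference, without its sign, was 0.072 for frozen to fresh, 0.054 for replated to fresh and 0.085 for replated to frozen, where all kept probes had 0.098, 0.10 and 0.13. No member passed 1.5-fold in any comparison, whereas 0.459%, 0.668% and 1.64% of all kept probes did. The 95% interval lay wholly within 1.5-fold for 95, 94 and 94 of the 95 members, against 94.1%, 94% and 90.1% of all kept probes. A change larger than 1.5-fold is thus outside the interval of every member but the dimmer ATP5MC1 probe, whose interval reached -0.70 in replated against fresh and -0.59 in replated against frozen cells. These narrow intervals go with bright probes: the median signal of the members was 11.44 on the log2 scale, against 7.06 over all kept probes, and the median SD between arrays of a state was 0.063 to 0.067, against 0.095 to 0.099. Brightness was not matched in this comparison.

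By complex, the medians on single arrays differed little in size, and the states overlapped throughout in complex IV alone. Each value was taken as the median, over the probes of a complex, of the deviation from the mean of the 9 arrays. For complex I it was 0.027, 0.014 and 0.028 on the fresh arrays, -0.0035, -0.011 and 0.036 on the frozen arrays and -0.0032, -0.014 and -0.047 on the replated arrays. The replated arrays of complex I thus lay below all fresh arrays, while the frozen arrays spanned both. For complex V the replated arrays were at -0.037, -0.022 and -0.022, below the fresh arrays at 0.0043, 0.035 and -0.011 and the frozen arrays at -0.0034, 0.012 and 0.031. Complex III arrays were at -0.045, 0.047 and 0.028 in fresh, 0.0061, 0.023 and 0.037 in frozen and -0.058, -0.055 and -0.017 in replated cells, with the replated arrays below all frozen ones and 1 fresh array among them. Complex II, with 7 probes, ran the other way, with replated arrays at 0.0011, 0.13 and 0.024 above the fresh arrays at -0.014, -0.024 and -0.012. Complex II also spread most within a state, from -0.13 to 0.063 on the frozen arrays, which spanned the fresh arrays. Complex IV lay between -0.024 and 0.024 on all 9 arrays. The largest of these deviations was 0.13 on the log2 scale. No p is given for them, since the members were chosen as a list.

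**Figure D2:**
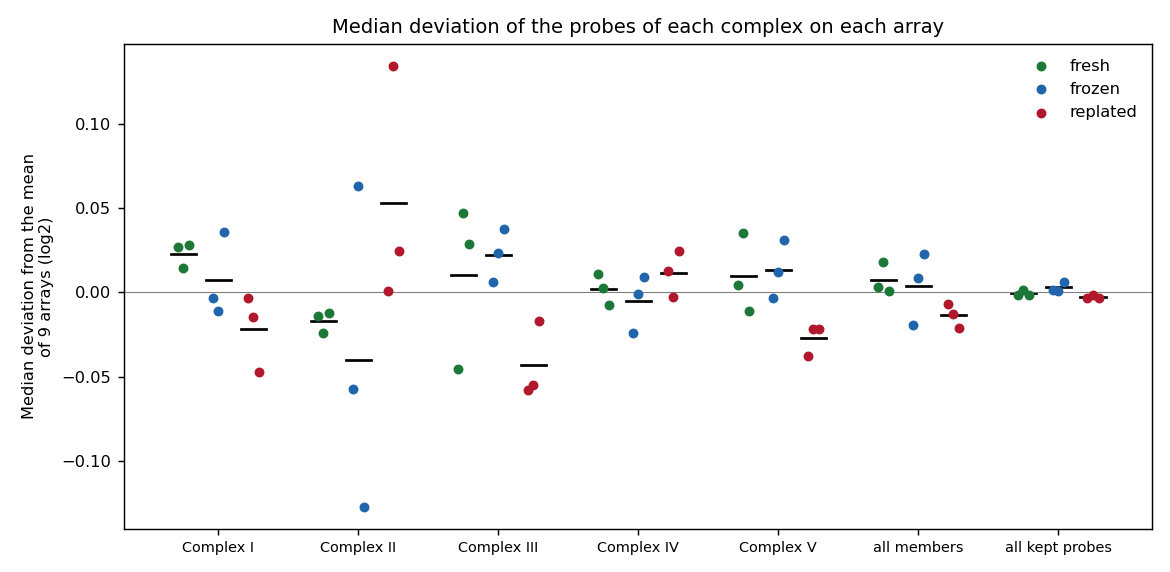
Points are arrays, coloured by state, and show the median log2 deviation (vertical axis) of the probes of each complex, of all 95 members and of all 18102 kept probes from their mean over the 9 arrays; black lines are means of 3 arrays. The replated arrays of complexes I and V sit below the fresh arrays and those of complex II above them; complex II scatters most, and the medians of all kept probes lie within 0.0062 of 0.

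ATP5MC1 of complex V gave the largest difference of any member. The gene encodes one of the precursors of subunit c, whose copies form the rotating membrane ring of the ATP synthase, and lies on chromosome 17 (48892787 to 48895871, GRCh38.p14). Its dimmer probe (ILMN_1712430) read 7.20, 7.20 and 7.45 on the fresh arrays, 7.20, 7.14 and 7.17 on the frozen arrays and 6.67, 6.83 and 6.81 on the replated arrays, in normalised log2 signal. The replated arrays lay below all 6 others, which overlapped each other. Its signal fell by 0.51 ± 0.09 in replated against fresh cells (1.43-fold lower, adjusted p = 0.0108) and by 0.40 ± 0.09 in replated against frozen cells (1.32-fold lower, adjusted p = 0.0156). The call against fresh cells held with each array left out in turn, with the difference between -0.56 and -0.43. The call against frozen cells was lost without replated replicate 1 (adjusted p = 0.0544). The brighter probe of the gene (ILMN_1676393) read 12.27, 12.33 and 12.42 in fresh, 12.40, 12.35 and 12.36 in frozen and 12.15, 12.06 and 12.02 in replated cells. Again the replated arrays were the lowest 3 of the 9. Its signal fell by 0.30 ± 0.07 against frozen cells (1.23-fold lower, adjusted p = 0.0208). The difference from fresh cells was -0.26 ± 0.07 (adjusted p = 0.0600), which is not a call. That difference was called with an offset of 50 (adjusted p = 0.017) and without background correction (0.0173). It was also called with detection p under 0.01 on all 9 arrays (0.0236) and with array weights (0.0414). The call against frozen cells was lost without frozen replicate 1, 2 or 3 or replated replicate 2 or 3 (adjusted p between 0.0511 and 0.0756). Centring each array on its median also ended all calls of both probes against frozen cells (adjusted p = 0.117 for the dimmer and 0.188 for the brighter probe), while the dimmer probe kept its call against fresh cells (adjusted p = 0.0168). The frozen against fresh differences of the gene, -0.11 ± 0.09 and 0.04 ± 0.07, were not called.

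ATP5MC2 encodes a precursor of the same mature subunit c, so that its 2 kept probes bear on the ATP5MC1 result; they were picked for this after their values were seen. The brighter ATP5MC2 probe (ILMN_1660577) read 12.81, 12.83 and 12.85 in fresh, 12.75, 12.74 and 12.78 in frozen and 12.78, 12.84 and 12.67 in replated cells, with overlap of fresh and replated arrays. Its replated against fresh difference was -0.07 ± 0.07 (adjusted p = 0.647). The dimmer ATP5MC2 probe (ILMN_1669102) read 6.75, 6.81 and 6.92 in fresh, 6.75, 6.80 and 6.83 in frozen and 6.47, 6.60 and 6.60 in replated cells. Its replated arrays were below the other 6, but with a difference of -0.27 ± 0.07 from fresh cells (adjusted p = 0.0651) it missed the threshold. With detection p under 0.01 required on all 9 arrays it was called lower against fresh (adjusted p = 0.0262) and frozen cells (0.0278). The test of a difference between the 2 genes was not run. Their promoters are shown because the pair codes for the same subunit under separate control regions. Both are RefSeq sequences of GRCh38.p14 for the 250 bases before the start that RefSeq's table uses, at chr17:48892537-48892786 on the plus strand for ATP5MC1 and at chr12:53676084-53676333 on the minus strand for ATP5MC2, where that start lies inside the longest annotated extent of the gene. Capitals mark CCAAT, which is the core bound by the factor NF-Y, on the strand shown.
ATP5MC1: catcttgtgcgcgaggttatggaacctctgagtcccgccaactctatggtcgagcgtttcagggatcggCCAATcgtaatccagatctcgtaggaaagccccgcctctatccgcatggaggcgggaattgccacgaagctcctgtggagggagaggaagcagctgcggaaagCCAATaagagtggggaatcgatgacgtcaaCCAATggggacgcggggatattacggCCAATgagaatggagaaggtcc
ATP5MC2: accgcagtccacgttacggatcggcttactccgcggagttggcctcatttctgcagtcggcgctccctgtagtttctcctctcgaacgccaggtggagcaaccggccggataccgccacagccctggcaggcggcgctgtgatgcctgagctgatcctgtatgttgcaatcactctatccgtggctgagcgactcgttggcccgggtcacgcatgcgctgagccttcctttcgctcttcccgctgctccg
The ATP5MC1 window holds CCAAT 4 times, with first bases 181, 78, 48 and 22 bases before the start. The ATP5MC2 window holds none of the 4 motifs searched. At least 4 matches on either strand were found in 3 of the 65 member promoters (ATP5F1E, ATP5MC1 and NDUFS8; 4.62%) and in 0.93% of 27305 promoters. In replated against fresh cells the ATP5F1E difference was 0.05 ± 0.08 and the NDUFS8 difference -0.10, and neither was called. A match is letters in a window and shows no binding.

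ATP5F1D encodes the delta subunit of the rotating central stalk of the ATP synthase, on chromosome 19 (1241751 to 1244825, GRCh38.p14), and its 2 probes gave unlike values. The dimmer probe (ILMN_1679178) read 8.51, 8.60 and 8.46 in fresh, 8.48, 8.50 and 8.55 in frozen and 8.22, 8.23 and 8.14 in replated cells. All replated arrays lay below the other 6. The signal of this probe fell by 0.33 ± 0.07 against fresh cells (1.25-fold lower, adjusted p = 0.0270) and by 0.31 ± 0.07 against frozen cells (1.24-fold lower, adjusted p = 0.0158). The call against fresh cells was lost without fresh replicate 1 or 2 or replated replicate 1, 2 or 3 (adjusted p between 0.0605 and 0.101). The call against frozen cells was lost without frozen replicate 3 (adjusted p = 0.0521) or replated replicate 3 (adjusted p = 0.0620), and both were lost with median centring (adjusted p = 0.0545 and 0.166). The call against fresh cells was also lost with only the 2 states compared (0.0527). The brighter probe (ILMN_1653599), named after its values were seen, read 11.22, 11.32 and 11.08 in fresh, 11.16, 11.16 and 11.28 in frozen and 11.14, 11.23 and 11.20 in replated cells. Its arrays overlapped across all states, with a replated against fresh difference of -0.01 ± 0.08 (95% interval -0.19 to 0.16). The fall of the dimmer probe was thus not seen in the brighter probe of the same gene, a gap that was not itself tested.

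None of the other complex V probes was called, those of the alpha and beta subunits included. ATP5F1A (alpha, ILMN_1764494) read 14.10, 14.03 and 14.00 in fresh, 14.03, 14.06 and 14.02 in frozen and 14.14, 14.00 and 14.09 in replated cells. The states overlapped, with a replated against fresh difference of 0.03 ± 0.07. ATP5F1B (beta) read 14.33, 14.36 and 14.24 in fresh, 14.31, 14.19 and 14.24 in frozen and 14.19, 14.20 and 14.19 in replated cells. Its replated arrays lay just below the fresh ones, by -0.12 ± 0.07 (adjusted p = 0.362). ATP5IF1, the inhibitor, differed by -0.10 between frozen and fresh cells, and by 0.05 and 0.14 between replated cells and fresh or frozen cells, in its brighter probe, and none of these was called. Over the 31 complex V probes the replated against fresh differences ran from -0.51 to 0.25, with 17 below 0.

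**Figure D3:**
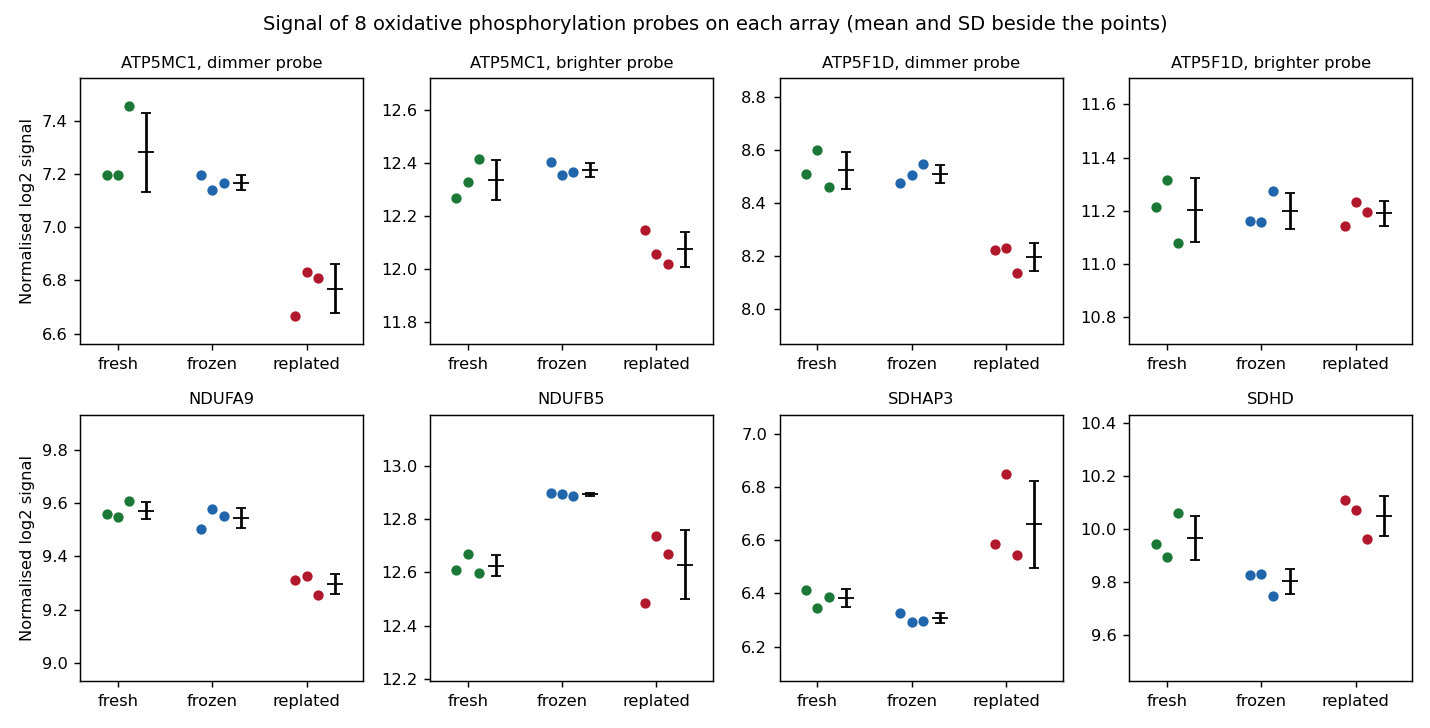
Each panel shows 1 probe, with the normalised log2 signal of every array (vertical axis, all panels spanning the same number of log2 units) by state (horizontal axis) and the mean and SD of 3 arrays beside the points. Replated arrays lie below all others for both ATP5MC1 probes, the dimmer ATP5F1D probe and NDUFA9, the brighter ATP5F1D probe shows no such gap, NDUFB5 is highest in frozen cells, and SDHAP3 is highest in replated cells.

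In complex I, 35 probes of 31 genes were tested and 2 were called. NDUFA9, an accessory subunit that helps to join the matrix arm to the membrane arm, read 9.56, 9.55 and 9.61 in fresh, 9.50, 9.58 and 9.55 in frozen and 9.31, 9.33 and 9.25 in replated cells (ILMN_1760741). Its replated arrays lay below the 6 others. The signal fell by 0.28 ± 0.06 against fresh cells (1.21-fold lower, adjusted p = 0.0370) and by 0.25 ± 0.06 against frozen cells (1.19-fold lower, adjusted p = 0.0300). This call rests on all arrays together. Against fresh cells it was lost without fresh replicate 1, 2 or 3, frozen replicate 2 or replated replicate 1, 2 or 3 (adjusted p between 0.0501 and 0.126), and against frozen cells without frozen replicate 2 or 3 or replated replicate 1, 2 or 3 (adjusted p between 0.0578 and 0.0996). Median centring ended both calls (adjusted p = 0.0763 and 0.319), and so did fitting only the 2 states compared (0.0668 and 0.0537). The promoter of NDUFA9 is shown because, of the promoters found for called subunit genes (NDUFA9 and ATP5MC1), it holds a match to the site of NRF1, a factor known for its sites in many genes of the respiratory chain. It is the RefSeq sequence of GRCh38.p14 at chr12:4648864-4649113, plus strand, and the capitals mark the match to GCGCA and GCGC spaced by 1 base of any kind, which reads on the opposite strand and begins 80 bases before the start.
NDUFA9: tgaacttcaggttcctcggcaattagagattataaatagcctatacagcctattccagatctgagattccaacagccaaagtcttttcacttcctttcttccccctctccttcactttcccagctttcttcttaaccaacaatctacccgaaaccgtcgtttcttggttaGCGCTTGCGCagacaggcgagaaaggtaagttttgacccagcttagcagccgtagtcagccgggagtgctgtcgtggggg
NDUFB5, an accessory subunit of the membrane arm, was highest in frozen cells. It read 12.61, 12.67 and 12.60 in fresh, 12.90, 12.89 and 12.89 in frozen and 12.48, 12.74 and 12.67 in replated cells (ILMN_1807397). The frozen arrays lay above the 6 others, and the fresh and replated arrays overlapped. The signal fell by 0.26 ± 0.08 in replated against frozen cells (1.20-fold lower, adjusted p = 0.0478), while the frozen against fresh difference of 0.27 ± 0.08 was not called (adjusted p = 0.119). The call was lost in 8 of the 9 fits with 1 array left out, without fresh replicate 1, 2 or 3, frozen replicate 1, 2 or 3 or replated replicate 1 or 3 (adjusted p between 0.0597 and 0.126). It was also lost with median centring (adjusted p = 0.253), the authors' values (0.0684), no filter on dim probes (0.0533), a replicate block (0.0655) or only the 2 states compared (0.0788). With an offset of 50 in the background correction the frozen against fresh difference was called (adjusted p = 0.0401).

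The catalytic core of complex I was not called in any comparison, but NDUFV1 was under other settings. NDUFV1, which binds the flavin that takes electrons from NADH, read 10.63, 10.77 and 10.57 in fresh, 10.78, 10.84 and 10.78 in frozen and 10.46, 10.70 and 10.56 in replated cells. Its frozen arrays lay above the rest, with a replated against frozen difference of -0.23 ± 0.08 (adjusted p = 0.0942). It was called lower in that comparison with an offset of 50 (adjusted p = 0.0393), without background correction (0.0377), with centring over kept probes (0.0357) and with the stricter filter of detection p under 0.01 on all 9 arrays (0.0499). NDUFS1, the largest iron-sulfur subunit, was at 7.12, 6.99 and 7.11 in fresh, 6.85, 6.94 and 6.83 in frozen and 6.96, 6.86 and 7.13 in replated cells. The frozen against fresh difference of NDUFS1 was -0.20 ± 0.08 (adjusted p = 0.255). The complex I differences ran from -0.30 to 0.27 in frozen against fresh cells and from -0.28 to 0.085 in replated against fresh cells, where 24 of 35 were below 0. Of the 9 members with an unadjusted p under 0.05 in frozen against fresh cells, 7 belonged to complex I, which is 20% of its 35 probes against the 17.2% of all kept probes.

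Complex II had 7 kept probes of 5 genes, and its only call was a pseudogene. SDHAP3 (chromosome 5, 1571957 to 1594531, GRCh38.p14) read 6.41, 6.35 and 6.39 in fresh, 6.33, 6.29 and 6.30 in frozen and 6.59, 6.85 and 6.55 in replated cells (ILMN_2148679). Its replated arrays were the highest 3. The signal rose by 0.35 ± 0.08 in replated against frozen cells (1.28-fold, adjusted p = 0.0228), and the replated against fresh difference of 0.28 ± 0.08 was not called (adjusted p = 0.0926; with the stricter detection filter 0.0415). The call was lost without frozen replicate 2 (adjusted p = 0.0622), frozen replicate 3 (adjusted p = 0.0612) or replated replicate 2 (adjusted p = 0.0552). SDHAP3 and SDHAP1 resemble SDHA, and whether their probes also bind its transcript was not tested. SDHAP1 read 5.31, 5.74 and 5.85 in fresh, 5.67, 5.81 and 5.46 in frozen and 5.90, 5.89 and 5.91 in replated cells, and its replated against frozen difference of 0.25 ± 0.13 was not called (adjusted p = 0.237). SDHA itself, the flavoprotein that oxidises succinate, differed by -0.02 ± 0.08 in replated against fresh and 0.01 ± 0.08 in replated against frozen cells (ILMN_2051232). The signal of this probe thus did not follow that of SDHAP3. The other kept probe of SDHA differed by 0.04 in replated against fresh and by -0.12 in replated against frozen cells, and was not called. SDHD, a membrane anchor of the complex, read 9.95, 9.89 and 10.06 in fresh, 9.83, 9.83 and 9.75 in frozen and 10.11, 10.07 and 9.96 in replated cells. Its frozen arrays were the lowest 3, with a replated against frozen difference of 0.25 ± 0.07 that fell just short of a call (adjusted p = 0.0529). It was called with an offset of 50 (adjusted p = 0.0188), without background correction (0.0192), with median centring (0.0331) and with the stricter filter (0.0239). SDHB is not analysed here.

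Complex III, with 12 probes of 8 genes, had no call. Its replated against fresh differences were below 0 in 10 of 12 probes, with a median of -0.049 and a range from -0.13 to 0.15, but UQCR10 accounts for 3 of these probes. CYC1, the cytochrome c1 subunit that hands electrons to cytochrome c, read 12.73, 12.73 and 12.72 in fresh, 12.65, 12.68 and 12.68 in frozen and 12.54, 12.55 and 12.73 in replated cells. Replated arrays 1 and 2 were low and array 3 was at the fresh level. The replated against fresh difference of -0.12 ± 0.07 was not called (adjusted p = 0.406). UQCRC1, a core subunit on the matrix side, differed by -0.02 ± 0.09 in replated against fresh cells. UQCR11 and UQCRH, small subunits of the complex, had differences of opposite sign. UQCR11 read 6.66, 6.70 and 6.71 in fresh, 6.88, 6.72 and 6.84 in frozen and 6.67, 6.64 and 6.55 in replated cells. UQCRH (ILMN_1792138) read 9.74, 9.69 and 9.86 in fresh, 9.68, 9.59 and 9.78 in frozen and 9.90, 9.81 and 10.02 in replated cells. Their replated against frozen differences, -0.20 ± 0.07 (adjusted p = 0.0901) and 0.23 ± 0.08 (adjusted p = 0.1), were not called. The other kept probe of UQCRH differed by only 0.01 in that comparison. In replated against fresh cells it differed by -0.01, where ILMN_1792138 differed by 0.15. ILMN_1792138 was called with an offset of 50 (adjusted p = 0.0449) and without background correction (0.0435), and UQCR11 with detection p under 0.01 on all 9 arrays (0.0473). UQCRFS1 is not analysed here.

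Complex IV had the narrowest range of differences of the 5 complexes. Its 10 probes of 10 genes had no call and differences from -0.18 to 0.16 over the 3 comparisons. These probes were also the brightest, with a median signal of 13.24 on the log2 scale, against 12.26 or less in the other complexes. Brightness and probe number were not matched between complexes. COX4I1, a regulatory subunit that binds ATP, read 14.03, 14.08 and 14.09 in fresh, 14.13, 14.15 and 14.16 in frozen and 14.16, 14.08 and 14.15 in replated cells, with a replated against fresh difference of 0.06 ± 0.06. COX5A differed by -0.05 ± 0.06 in that comparison. COX6A1, the ubiquitous form of subunit VIa, read 11.15, 11.10 and 11.04 in fresh, 10.93, 10.96 and 10.85 in frozen and 11.12, 11.02 and 11.05 in replated cells. Its frozen arrays were the lowest 3, by -0.18 ± 0.07 against fresh cells (adjusted p = 0.204). COX7B read 11.31, 11.11 and 11.19 in fresh, 11.20, 11.27 and 11.19 in frozen and 11.41, 11.18 and 11.48 in replated cells, where the states overlapped and the replated against fresh difference was 0.16 ± 0.09 (adjusted p = 0.375). The isoforms known from other tissues were on the dim side of the detection rule. COX4I2, COX6A2, COX6B2, COX7A1, COX7B2 and COX8C, known from lung, heart and skeletal muscle or testis, were detected on 0 of 9 arrays, and so were NDUFA5 and NDUFS6 of complex I. These 8 genes had no kept probe. The other probes left out were 1 further probe each of NDUFB4 and ATP5MC2, on 0 arrays, and one of ATP5ME, on 1 array.

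Probes of the same gene, read on the same arrays, were set side by side. Among the 21 genes with 2 or 3 kept probes, the median gap between probes of a gene was 0.10, 0.11 and 0.097 for frozen to fresh, replated to fresh and replated to frozen, close to or above the median size of a member's difference. The probes differed in sign in 13, 10 and 10 of the 21 genes. ATP5MC1 was the only one of them with both probes called in the same comparison, replated against frozen. The largest gap in replated against fresh cells, 0.31, was that of ATP5F1D. ATP5F1C, the gamma subunit of the stalk, had differences of 0.01 and 0.25 in that comparison, and ATP5PF of -0.02, 0.01 and -0.22. None of these 5 probes, picked after their values were seen, was called, but the 0.25 probe of ATP5F1C was with an offset of 50 (adjusted p = 0.0466) and without background correction (0.0441).

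**Figure D4:**
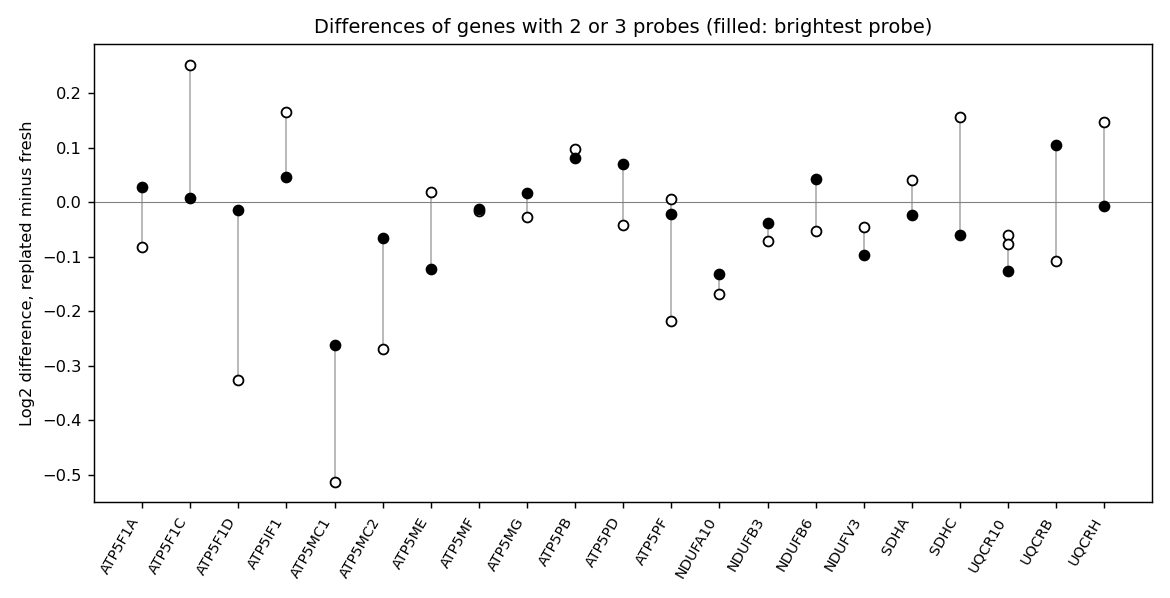
For the 21 genes with 2 or 3 kept probes (horizontal axis), points show the log2 difference of each probe in replated against fresh cells (vertical axis), joined by a line, with the brightest probe of a gene filled. Both ATP5MC1 probes lie far below 0, whereas ATP5F1D, ATP5F1C, SDHC and UQCRB have 1 probe near or across 0 from the other.

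The promoters of the members were searched for motifs, and no test was run on the shares. A RefSeq promoter was found for 65 of the 80 genes, and 250 bases before the start were searched on both strands for 4 motifs, none of which contains another. The NRF1 site, GCGCA and GCGC spaced by 1 base, was present in 14 of the 65 (21.5%) against 5.53% of 27305 promoters. CCGGAAG, the core of sites for ETS factors such as GABP, was present in 16 (24.6%) against 8.82%. The GC box GGGCGG was present in 35 (53.8%) against 42.3%, and CCAAT in 21 (32.3%) against 33%. NRF1 and GABP are known regulators of respiratory chain genes, and neither was called here. The 1 call among the 12 regulators tested was PPARGC1B, lower in replated against frozen cells. NRF1 differed by -0.11 and GABPA by 0.02 in replated against fresh cells (adjusted p = 0.481 and 0.907).

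Genes that work with the subunits were counted from lists of related genes, with the brightest kept probe for each gene. The backgrounds, 0.952%, 4.59% and 12.1% of all genes, are those given above. Of 44 assembly factors tested, 0 were called in frozen against fresh cells, 1 was lower in replated against fresh cells and 5 were lower and 1 higher in replated against frozen cells, with medians of -0.0008, -0.079 and -0.075. TMEM70, a factor for assembly of the ATP synthase and its ring of c subunits, read 8.52, 8.68 and 8.31 in fresh, 8.51, 8.58 and 8.49 in frozen and 8.17, 7.98 and 8.15 in replated cells. The replated arrays were the lowest 3. TMEM70 fell by 0.41 against fresh cells (adjusted p = 0.0432) and by 0.43 against frozen cells (adjusted p = 0.0195). The call against fresh cells was kept in 1 of the 9 fits with an array left out, that without fresh replicate 3 (highest adjusted p of the others 0.129). It was also lost with the authors' values (adjusted p = 0.0834), no filter on dim probes (0.0609), a replicate block (0.0717) or only the 2 states compared (0.0732). The call against frozen cells was kept in 7 of the 9 fits, the losses being without frozen replicate 2 or replated replicate 2 (adjusted p up to 0.0641), and was lost with median centring (adjusted p = 0.0675). Also called lower in replated against frozen cells were NDUFAF4 (-0.30), COA7 (-0.30), SCO2 (-0.28) and TIMMDC1 (-0.27). Their calls were kept in 4, 5, 5 and 2 of the 9 fits with an array left out, and all were lost with median centring. COX19, the 1 assembly factor called higher, rose by 0.39 in replated against frozen cells (adjusted p = 0.0155). Its call was lost without frozen replicate 3 or replated replicate 1 (adjusted p up to 0.0538) and kept under all other settings. In replated against frozen cells SLC25A4, a carrier that exchanges ADP for ATP across the inner membrane, was the 1 call among 7 carriers and partners of the ATP synthase, and fell by 0.30 (adjusted p = 0.0160). This call was lost without frozen replicate 2 or replated replicate 3 (adjusted p up to 0.0619) and with median centring (a difference of -0.19, adjusted p = 0.181). Of 18 genes of the citrate cycle and pyruvate dehydrogenase, 1 was called lower in frozen against fresh cells, 0 in replated against fresh cells, and 2 higher and 1 lower in replated against frozen cells. DLD, the dihydrolipoamide dehydrogenase shared by the pyruvate and 2-oxoglutarate complexes, was lowest in frozen cells. It read 9.57, 9.43 and 9.40 in fresh, 8.92, 9.10 and 8.92 in frozen and 9.47, 9.38 and 9.45 in replated cells. DLD fell by 0.49 in frozen against fresh cells (1.40-fold lower, adjusted p = 0.0181) and was 0.45 higher in replated than in frozen cells (adjusted p = 0.00567). The first of these calls was lost without fresh replicate 1 or 2 or frozen replicate 1 or 3 (adjusted p up to 0.0675) and with only the 2 states compared (adjusted p = 0.0613), and the second was kept with every array left out. None of the 17 electron carriers and donors, 10 genes of mitochondrial DNA and transcription and 12 regulators was called in the 2 comparisons with fresh cells. In replated against frozen cells 1, 2 and 1 of them were called. They were ETFDH (-0.26), POLG2 (0.39) and POLRMT (-0.31), and PPARGC1B (-0.31). With 1 array left out, these calls were kept in 4, 4, 5 and 8 of the 9 fits. Median centring ended those of ETFDH, POLRMT and PPARGC1B, and the authors' values that of POLG2.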

How the data were processed

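Total RNA of THP-1 cells in 3 states (fresh, frozen, replated; 3 samples each, grouped by sample title) was, per the labels' protocols, prepared with a miRNeasy kit, amplified to biotin-labelled cRNA (Ambion MessageAmp) and measured on 9 Illumina arrays. The main table is probe intensity on a linear scale, non-normalised per the file headers. The deposited detection column is headed as a p-value but rises with the signal of its array, and was read as a score: 1 minus a p-value against the negative controls. A second deposited table holds intensity on a linear scale that the authors had background-corrected and quantile-normalised, as its values show. The sources used here do not give the software, and 0 sample columns went unused.

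Signals were corrected and quantile-normalised with neqc of limma 3.58.1 (R 4.3.3; normexp offset 16, log2), which understates differences of dim probes. Probes with a detection p under 0.05 on at least 3 arrays were kept, and lmFit and eBayes were run on all 9 arrays (residual df 6, prior df 4.65). With 3 arrays a state, array number limits precision. Symbols were updated through Entrez gene IDs, which matched all 107 member probes. The methods were also run on simulated data with independent normal noise, and the outcome is not given here.

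Named members were, by rule, all called probes, the pair of lowest F test p per complex, and 11 core subunits (SDHB and UQCRFS1 are not analysed here). The second probes of ATP5F1D, UQCRH and SDHA were named after their values were seen. So were ATP5MC2, ATP5IF1, SDHAP1, ATP5F1C, ATP5F1E, ATP5PF, NDUFS8, NDUFV3, NRF1 and GABPA. The members and all lists were chosen with earlier results of these data known. Alternatives were array weights, each array left out, a fit of only the states compared, a replicate block, other filters and offsets, uncorrected background, median centring and the authors' own values.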

Additional observations from a re-analysis of the deposited data

How the results depend on the processing

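Named values were compared under 19 alternatives, and all 9 called values kept their direction in each of them. Of the 49 values not called, 6 were called under some alternative and 18 changed sign under some alternative. The replated against fresh value of the brighter ATP5MC1 probe and the values named after they were seen are not among these 49. The called members depended on the settings. In frozen against fresh cells 1 member, NDUFB5, was called higher with an offset of 50 or without background correction. With median centring the 1 call was instead lower, in 1 of the 2 kept probes of NDUFV3 (-0.412, adjusted p = 0.0331). None was called with any array left out. In replated against fresh cells the 3 calls became 5 with an offset of 50, 5 without background correction, 6 with detection p under 0.01 on all 9 arrays, and 1 each with median centring, a replicate block or only the 2 states compared. They numbered 1 to 3 with 1 array left out (1 without fresh replicate 1 or 2 or any replated array). In replated against frozen cells the 6 calls became 12 with an offset of 50, 11 without background correction, 12 with the stricter filter and 2 with median centring, both of these higher in replated cells (SDHAP3 and SDHD). They numbered 1 to 6 with 1 array left out (1 without frozen replicate 3). The F test's 5 calls became 3 with the authors' values, 2 with the replicate block and 1 to 3 with 1 array left out.

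Over all kept probes, the 184 calls in frozen against fresh cells became 542 with an offset of 50, 565 without background correction, 827 with median centring, 287 with centring over kept probes (added after seeing the data), 366 with the stricter filter, 103 with the authors' values, 104 with the block, 54 with only the 2 states and 50 to 142 with 1 array left out. The 747 in replated against fresh cells became 1333, 1305 and 468 under the first 3 of these, 1199 with the stricter filter, 427 with the authors' values, 444 with the block and 243 to 707 with 1 array left out. The 2095 in replated against frozen cells became 1008 to 2014 with 1 array left out. The share of calls that were lower, 52.2% in frozen against fresh and 46% in replated against frozen cells, was 91.5% and 15.4% with median centring and 30.3% and 61.7% with centring over kept probes. It was 65.5% with an offset of 50 and 66.5% without background correction in frozen against fresh cells. The member median moved to -0.101, -0.0575 and 0.0576 with median centring and to 0.0511, -0.0361 and -0.0727 with centring over kept probes (frozen to fresh, replated to fresh, replated to frozen).

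Reversed values were all of uncalled differences. Median centring reversed frozen against fresh COX5A (-0.0785), COX7B (-0.0982), UQCR11 (-0.0185) and UQCRC1 (-0.0969), replated against fresh ATP5F1A (-0.0058) and NDUFB5 (-0.0388), and replated against frozen COX5A (0.0106), CYC1 (0.0356) and UQCRC1 (0.0399). Centring over kept probes reversed frozen against fresh ATP5F1A (0.0662), ATP5F1B (0.0889), ATP5F1D (0.0035) and SDHA (0.0030), replated against fresh NDUFB5 (-0.0175), and replated against frozen ATP5F1A (-0.0507) and SDHA (-0.0411). With 1 array left out, frozen against fresh values ran from -0.0308 to 0.0228 for ATP5F1A, -0.0445 to 0.0252 for ATP5F1D, -0.0040 to 0.0262 for COX5A, -0.0295 to 0.0717 for COX7B, -0.0765 to 0.028 for SDHA and -0.0571 to 0.0984 for UQCRC1. Replated against fresh values ran from -0.0025 to 0.0671 for ATP5F1A, -0.0492 to 0.0767 for NDUFB5, -0.0572 to 0.0193 for SDHA and -0.102 to 0.045 for UQCRC1, and replated against frozen values from -0.0334 to 0.0090 for COX4I1, -0.052 to 0.0525 for SDHA and -0.117 to 0.0092 for UQCRC1. The cause was not tested. The 9 same-number correlations of deviations lay between -0.0476 and 0.0473, and the 18 between other numbers from -0.064 to 0.0338. Such correlations cannot show whether samples of the same number shared a source, which the labels do not say. The replicate block also ended the calls of NDUFA9 (adjusted p = 0.076 and 0.0583), of NDUFB5 in replated against frozen cells (0.0655) and of ATP5F1D in replated against fresh cells (0.0549).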
